A study of Mus musculus with 12 samples.

Results

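Liver cells of untreated mice were compared between a fraction labelled mesenchymal cell (MC_H2O, 3 arrays) and hepatocytes (HC_H2O, 3 arrays). The arrays were chosen by their sample titles and are 6 of the 12 arrays of the series. RNA levels were read on Affymetrix 3′ arrays, 1 array per sample, and are given as log2 RMA values. All 6 samples come from livers of male C57BL/6N mice, 12 weeks old, that drank plain tap water for 14 days as the vehicle group. The other 6 arrays are the same populations (HC_PB and MC_PB, 3 arrays each) from mice given phenobarbital, a barbiturate that induces hepatic drug metabolism, at 50 mg/kg per day over the same 14 days. They enter through the choice of a gene's probe set, the filter on dim genes, the spread between replicates and the comparison at the end. On the 6 vehicle arrays alone 8754 genes were tested, against 9031. The sources used here do not give how the fractions were isolated or how many animals stand behind an array, so p-values reflect only the spread between these samples, which may be technical.

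Hepatocytes are the epithelial, metabolic cells of the liver and make most plasma proteins, bile, urea and glucose. The other cells line and patrol the sinusoids: fenestrated endothelium takes up waste molecules from blood, Kupffer cells are resident macrophages, and stellate cells are mesenchymal cells that store retinoids and can lay down matrix. The populations speak to each other, for example when sinusoidal endothelium sends BMP and Wnt proteins to hepatocytes, and when hepatocytes send VEGF to endothelium.

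Most genes differed between the fractions. Of 9031 genes tested, 7470 (82.7%) differed in limma at a Benjamini-Hochberg adjusted p under 0.05, 3793 (42.0%) higher and 3677 (40.7%) lower in MC_H2O. At least 2-fold differences were found for 2117 genes (23.4%) higher and 1701 (18.8%) lower. The 3 MC_H2O and 3 HC_H2O values did not overlap for 7624 genes (84.4%). These shares are the background for every gene list below: that most members of a list differed says nothing particular about the list, and direction and size are described instead. The median difference over tested genes was 0.02 and the median absolute difference 0.82, with a median standard error (SE) of 0.12. Wide differences were not symmetrical. At 16-fold or more, 374 genes were higher and 385 lower in MC_H2O, but at 64-fold or more 110 were higher and 6 lower.

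Arrays of one group correlated at r of 0.990 to 0.995 for HC_H2O and 0.989 to 0.996 for MC_H2O across probe sets. Between the fractions r ran from 0.733 to 0.762. Values below the 40th percentile of an array (6.54 to 6.58 in HC_H2O, 6.64 to 6.68 in MC_H2O) are called dim here: a difference from a dim side is rough and may be too small. The highest values lay at 15.1 in HC_H2O and from 14.92 to 14.95 in MC_H2O, where differences are compressed. The arrays numbered 1 stood apart in both groups: the clock output gene Dbp was at 6.21 and 6.52 there and between 11.60 and 11.87 in the other 4 arrays. Without these 2 arrays 7294 of 8977 genes differed, and 7084 of the calls made with all arrays were kept. Aligning the arrays on their medians moved every difference by −0.22 and aligning them on their 75th percentiles by −0.08. With median alignment the share of called genes that were higher in MC_H2O was 42.5%, against 50.8% with the values as deposited.

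**Figure D1:**
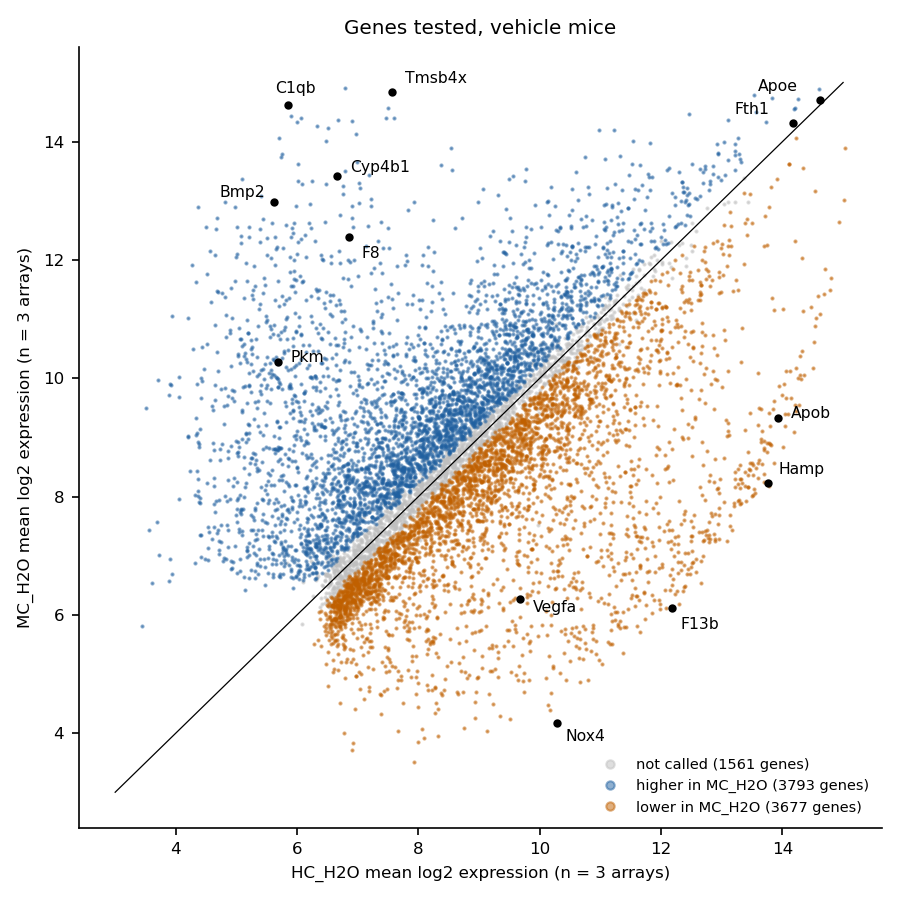
Mean log2 expression of each tested gene in HC_H2O (horizontal axis) and MC_H2O (vertical axis), 3 arrays each, with the line of equal expression; blue points were called higher in MC_H2O (3793), orange points lower (3677) and grey points were not called. C1qb and Tmsb4x lie far above the line, F13b and Nox4 far below it, and Apoe and Fth1 on or near it close to the top of the arrays.

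The label of the fraction was checked against cell type markers. Its strongest signals were those of macrophages and sinusoidal endothelium rather than of mesenchymal cells. The lectin Clec4f, which marks Kupffer cells, was at 6.62, 7.11 and 6.97 in HC_H2O and at 14.45, 14.28 and 14.33 in MC_H2O. The orphan receptor Gpr182, which marks sinusoidal endothelium, was at 6.70, 5.64 and 6.35 against 12.08, 12.77 and 12.78. Both genes separated the groups without overlap in all arrays, by 7.45 (SE 0.14) and 6.32 (SE 0.32), and so did all 13 tested Kupffer cell markers (median difference 7.70) and all 15 sinusoidal markers (median 6.32).

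Stellate cell and fibroblast markers were present at lower levels. Of 14 measured, 9 were tested, and 8 of these were higher in MC_H2O, 7 of them by at least 2-fold (median 2.68, widest difference 5.30). Lrat, the enzyme that esterifies retinol for storage in stellate cells, was at 3.81, 3.73 and 4.12 in HC_H2O and at 6.04, 6.79 and 6.86 in MC_H2O. The matrix glycoprotein Reln reached 9.11, 10.48 and 10.44 in MC_H2O against 6.12, 6.45 and 6.34. Des, the muscle type filament of stellate cells, was not called (0.16, SE 0.11), and Col1a1, Pdgfra, Pdgfrb, Ngfr and Hand2 were too dim to be tested. Of 6 smooth muscle and myofibroblast markers only Tagln was bright enough to test, and it was not called (−0.16, SE 0.12). The fraction is therefore called MC_H2O by its label here. In arrays of whole fractions, more cells of a type and more RNA per cell cannot be told apart.

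Markers listed for blood cells were found as well. All 10 tested monocyte and dendritic cell markers were higher in MC_H2O, with a median of 3.82. The list includes the class II genes H2-Aa, H2-Eb1 and Cd74, and H2-Aa had its widest difference (8.355). Which cells of the fraction carry these genes was not tested. All 4 tested neutrophil markers were higher too, but the alarmins S100a8 and S100a9 varied widely between MC_H2O arrays (9.53, 8.08 and 7.20 for S100a8, 9.98, 8.56 and 7.38 for S100a9). Without the arrays numbered 1 neither passed the limma test (differences of 1.86 and 2.11, adjusted p = 0.134 and 0.107). Mmp9, another of the 4, lost its call there too. It also lost it without HC_H2O array 1 alone and with arrays aligned on their medians. Of 9 tested T and NK cell markers 6 were higher and 1 lower. Of 4 tested B and plasma cell markers 2 were higher and 1 lower, and of 4 tested platelet markers 1 was higher and 3 lower. Only 2 of 4 measured erythroid markers were tested, and both were lower. Alas2, the red cell form of the first enzyme of haem synthesis, was at 10.67, 11.11 and 11.08 in HC_H2O and at 6.98, 6.97 and 6.79 in MC_H2O. The red cell factor Klf1 was lower by a difference of −1.96 (SE 0.24). Hba-a1 and Slc4a1 were too dim to be tested. No mesothelial marker was bright enough to be tested.

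**Figure D2:**
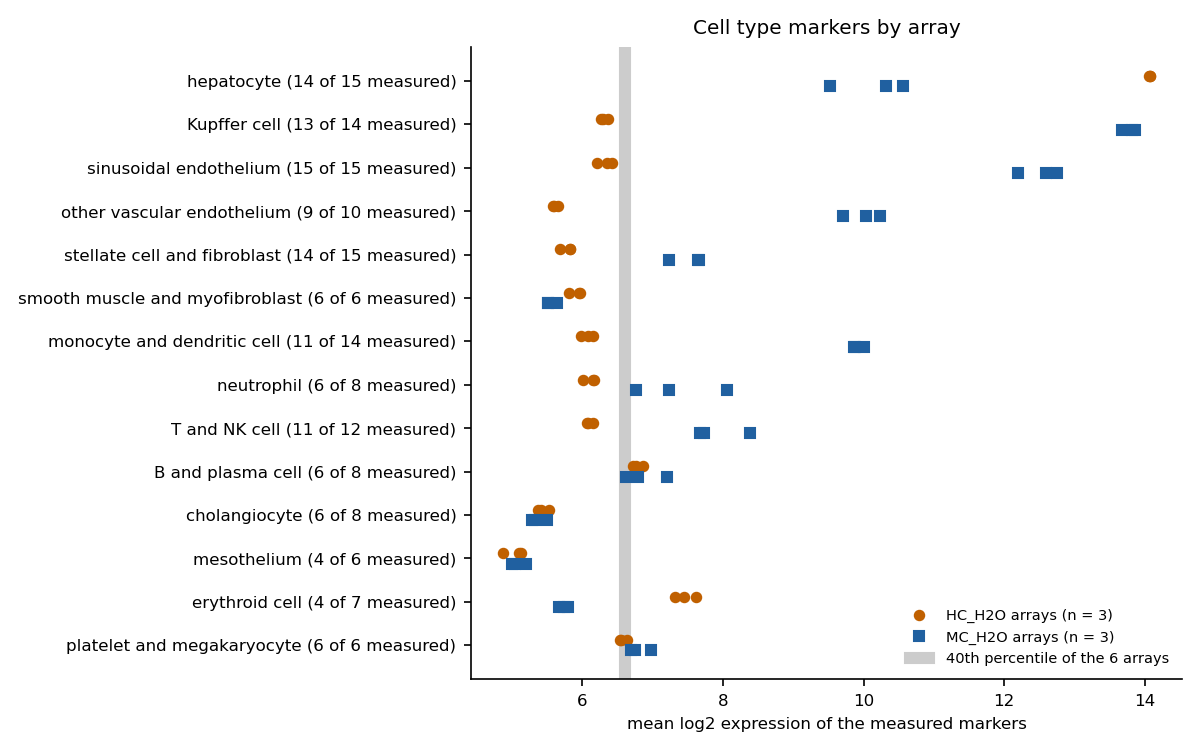
Mean log2 expression of the measured markers of each cell type (horizontal axis), 1 point per array, for the 3 HC_H2O (orange circles) and 3 MC_H2O (blue squares) arrays; the grey band spans the 40th percentiles of the arrays. Kupffer cell markers averaged 13.7 to 13.9 and sinusoidal markers 12.2 to 12.8 in MC_H2O, whereas smooth muscle, cholangiocyte and mesothelial means lay below the band.

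Hepatocyte markers had signal in MC_H2O. On the linear scale, the 14 hepatocyte markers had medians of 4.2%, 6.2% and 5.1% of their HC_H2O level in the 3 MC_H2O arrays, from 1.08% for Asgr1 in array 1 to 56.2% for Alb in array 2. These markers averaged 14.06 to 14.07 in HC_H2O, near the top of the arrays, where differences are compressed. Shares of the brightest markers, such as Alb, may therefore be too large. In the other direction only upper limits can be given, since Kupffer cell and sinusoidal markers averaged 6.21 to 6.43 in the HC_H2O arrays, under the 40th percentile. The 13 Kupffer cell markers had medians of at most 0.446% to 0.545% of their MC_H2O level in HC_H2O. The 15 sinusoidal markers had medians of at most 0.917% to 1.23%. Genes lower in MC_H2O must be read beside these shares, since a residual level there and RNA carried over from hepatocytes cannot be told apart. Their part in the differences below was not tested.

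Transcription factors separated the fractions by lineage. All 16 tested hepatocyte factors were lower in MC_H2O, with a median difference of −3.94. Foxa1, a pioneer factor of the liver lineage, was at 10.04, 9.07 and 8.82 in HC_H2O and at 4.62, 5.33 and 4.88 in MC_H2O, and the fatty acid receptor Ppara was at 9.91, 10.93 and 11.01 against 5.39, 5.94 and 5.50. Both were dim in all MC_H2O arrays. Foxa3 had the widest difference of the list (−5.28, SE 0.19). The exception in size was Cebpa, a factor of hepatocytes and of myeloid cells, which was at 11.47, 11.55 and 11.37 in HC_H2O and at 10.89, 10.53 and 10.39 in MC_H2O, a difference of −0.86 (SE 0.12).

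Of 16 macrophage and lymphoid factors 13 were higher and 2 lower in MC_H2O (median 3.31). Spi1 (PU.1), the master factor of myeloid cells, was at 5.97, 5.95 and 6.01 in HC_H2O and at 10.98, 10.81 and 10.61 in MC_H2O. Spic, a factor of iron-recycling macrophages, was at 6.16, 5.85 and 6.20 against 10.37, 9.80 and 9.52. Both separated the groups by more than 3 log2 units from a dim HC_H2O side. Runx1 was lower by a difference of −0.44 (SE 0.13) on its brightest probe set, and higher by 0.48 when its probe sets were averaged.

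Endothelial factors were higher in 15 of 18 cases and lower in 1 (median 2.56). The flow-responsive factor Klf2 was at 6.18, 6.01 and 6.39 in HC_H2O and at 12.61, 12.43 and 12.83 in MC_H2O, and Sox18, a factor of vessel formation, at 6.83, 7.09 and 6.74 against 11.34, 11.77 and 11.59. Gata4, which marks sinusoidal endothelium in adult liver, was higher by 2.02 (SE 0.12). The one lower member was Hhex, a homeobox factor of both liver and endothelium, at 12.02, 11.03 and 11.10 in HC_H2O and 9.84, 10.04 and 9.83 in MC_H2O (−1.48, SE 0.24). In the arrays of phenobarbital mice the difference of Hhex was 0.00, and the change of the difference did not pass the limma test (adjusted p = 0.743).

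Promoter windows of these genes were searched for motifs of the same factors. RefSeq windows on GRCm38.p6, 250 bases before to 50 after a gene's start, were at hand for 7329 of the 9031 tested genes, some with several windows. The 120 bases before the start are printed 5′ to 3′ on the gene's strand for 6 genes, chosen after their values were seen, with the motif in capitals. They are the genes with HNF1 or ETS letters in these bases among the 33 searched of 39 genes named for their widest differences. Of the 33, 23 held no motif searched for, 3 held TATA box letters and 1 the C/EBP motif. F13b, Igfbp1 and C4bp were lower in MC_H2O, by differences of −6.08, −5.95 and −5.50, and hold the HNF1 motif GTTAATNAT. C1qb, Lyz1 and Fcna were higher, by 8.77, 8.35 and 7.17, and hold the ETS core motif CAGGAAGT. A capital run that does not read as these letters is the reverse complement.
F13b, chr1:139501587-139501706, plus strand: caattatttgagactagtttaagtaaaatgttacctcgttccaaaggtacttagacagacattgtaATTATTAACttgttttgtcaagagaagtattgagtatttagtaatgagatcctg
Igfbp1, chr11:7197667-7197786, plus strand: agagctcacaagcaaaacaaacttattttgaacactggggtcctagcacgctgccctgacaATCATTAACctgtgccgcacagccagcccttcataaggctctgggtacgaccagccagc
C4bp, chr1:130661619-130661738, minus strand: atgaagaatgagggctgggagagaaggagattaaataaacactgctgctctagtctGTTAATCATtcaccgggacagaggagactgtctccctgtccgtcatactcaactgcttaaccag
C1qb, chr4:136886201-136886320, minus strand: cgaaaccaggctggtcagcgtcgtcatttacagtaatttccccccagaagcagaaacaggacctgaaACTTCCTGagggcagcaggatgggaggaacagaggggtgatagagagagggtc
Lyz1, chr10:117292869-117292988, minus strand: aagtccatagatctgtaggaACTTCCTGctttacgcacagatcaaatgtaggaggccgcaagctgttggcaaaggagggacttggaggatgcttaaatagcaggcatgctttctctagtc
Fcna, chr2:25627975-25628094, minus strand: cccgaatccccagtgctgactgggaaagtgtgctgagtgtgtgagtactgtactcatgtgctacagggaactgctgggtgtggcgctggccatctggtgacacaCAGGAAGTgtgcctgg
The HNF1 motifs began 54, 59 and 64 bases before the start of F13b, Igfbp1 and C4bp. Motifs of the ETS core lay 53, 100 and 16 bases before the start of C1qb, Lyz1 and Fcna.

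Motif shares were counted over whole windows on both strands. A gene with several windows was counted once for each. GTTAATNAT was found in 0.801% of all 32851 windows and in 0.53% of the 9436 windows of tested genes. For genes at least 16-fold lower in MC_H2O it was in 17 of 386 windows (4.4%), which come from 310 genes. For genes at least 16-fold higher it was in 1 of 363 windows (0.275%), which come from 282 genes. The HNF4A motif CAAAGTCCA was in 0.475% of all windows, 3.11% of those of the lower genes and 1.1% of those of the higher genes, and the C/EBP motif TTGCNCAA in 2.94%, 5.96% and 3.03%. For ETS factors the order was turned. The PU.1 form GAGGAAGT was in 3.2% of all windows, 5.79% of those of the higher genes and 2.33% of those of the lower genes. CAGGAAGT was in 3.33%, 5.79% and 1.55%, and the ETS forms share their last 7 letters. Over windows of tested genes, the HNF4A, C/EBP, PU.1 and ETS core shares were 0.615%, 2.71%, 2.9% and 3.5%. The median number of CpG per window was 8 for the higher and 5 for the lower genes, against 20 over tested genes, 22 for genes not called and 7 over all windows, so that the difference lies against tested genes and not against the whole table. The TATA box letters TATAAA were in 11.8% and 19.7% of the windows of higher and lower genes, against 7.86% over tested genes and 13.6% over all windows. These are descriptions of letters in a window, not of bound sites.

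**Figure D3:**
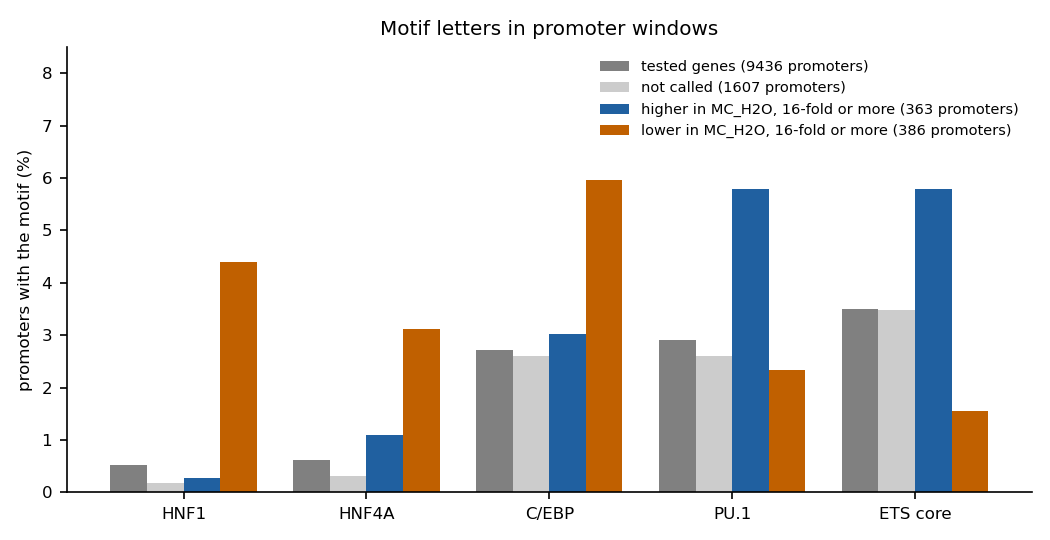
Share of promoter windows that hold the letters of each motif (vertical axis, percent) for tested genes, genes not called and genes at least 16-fold higher or lower in MC_H2O. HNF1 letters reach 4.4% in the windows of the lower genes, and PU.1 and ETS core letters reach 5.79% in those of the higher genes.

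Blood coagulation was divided between the fractions. Of 29 tested coagulation and fibrinolysis genes 22 were lower and 7 higher in MC_H2O, all but 1 by at least 2-fold (median −4.48). The lower genes were the classical liver products, such as the contact factors F11 and F12, the vitamin K dependent F9 and the fibrinogen chains. F11 was at 10.58, 10.64 and 10.75 in HC_H2O and at 4.53, 5.31 and 4.77 in MC_H2O, and F13b, the carrier subunit of factor XIII, at 12.17, 12.18 and 12.21 against 5.35, 6.67 and 6.30. Neither group overlapped the other, and F11 was dim in all MC_H2O arrays.

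F8, the cofactor missing in haemophilia A, ran the opposite way. It was at 6.97, 6.60 and 6.99 in HC_H2O and at 12.13, 12.41 and 12.63 in MC_H2O, higher by 5.53 (SE 0.22, adjusted p = 7.72e-10 in limma). The anticoagulant proteins of vessel walls were higher as well: thrombomodulin (Thbd) by 5.39 (SE 0.19), the tissue factor inhibitor Tfpi by 4.57 (SE 0.15) and the protein C receptor Procr by 2.80 (SE 0.24). Protein S (Pros1), a plasma cofactor of protein C, was higher by 1.87 (SE 0.15). Antithrombin (Serpinc1), a serpin that blocks thrombin, was lower, at 14.31, 14.17 and 14.31 against 9.37, 10.37 and 10.25. Von Willebrand factor (Vwf), the carrier of factor VIII made by endothelium, was higher by 2.71 (SE 0.15) and stood at only 7.36, 7.37 and 7.44 in MC_H2O.

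Complement was divided almost equally. Of 29 tested genes 14 were higher and 15 lower in MC_H2O, with 12 and 15 of them at least 2-fold apart. Higher in MC_H2O were the chains of C1q, properdin (Cfp, 5.93, SE 0.12), the ficolin Fcna (7.17, SE 0.18) and the decay factor Cd55 (6.60, SE 0.10). C1qc was at 6.51, 6.37 and 6.66 in HC_H2O and 14.32, 14.29 and 14.08 in MC_H2O. The proteases that pair with C1q, C1ra and C1s1, were lower, with C1s1 at 12.06, 12.15 and 12.16 in HC_H2O and 6.83, 7.95 and 7.51 in MC_H2O.

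The terminal complement genes were lower in MC_H2O with 1 exception. C9, which forms the membrane pore, was at 14.19, 13.98 and 13.87 in HC_H2O and 8.48, 9.21 and 8.80 in MC_H2O, and C8a, C8b, C8g and Hc (complement C5) differed by −5.03, −5.06, −5.33 and −4.90. C6 was higher in MC_H2O, at 12.64, 12.32 and 12.29 against 11.78, 11.44 and 11.60 (0.81, SE 0.18). Mbl1 and Mbl2, the mannose-binding lectins, were lower by differences of −5.22 and −5.53.

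Masp1, a lectin pathway protease gene known to give several protein products, depended on the probe set. One probe set was at 11.46, 11.56 and 11.52 in HC_H2O and at 5.29, 6.33 and 6.15 in MC_H2O, a difference of −5.59 (SE 0.30). Another was at 7.94, 7.60 and 7.85 in HC_H2O and at 10.79, 11.38 and 11.61 in MC_H2O, a difference of 3.46 (SE 0.18). Both passed the test in opposite directions, and the brighter of them stood for the gene in the count above. The sources used here do not say which transcripts the probe sets read.

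Lipid transport genes differed in both directions. Of 30 tested genes 19 were lower and 10 higher in MC_H2O (median −2.80). Apob, the core protein of very low density lipoprotein, was at 13.96, 13.92 and 13.92 in HC_H2O and 8.53, 9.88 and 9.58 in MC_H2O, and Mttp, which loads it with lipid, at 11.24, 11.18 and 11.25 against 5.99, 6.28 and 6.14. The higher genes included lipoprotein lipase (Lpl), at 7.31, 6.96 and 7.36 in HC_H2O and 13.30, 13.09 and 12.68 in MC_H2O, the fatty acid receptor Cd36 (5.02, SE 0.31), the sterol exporter Abcg1 (5.14, SE 0.25) and the phospholipid transfer protein Pltp (3.43, SE 0.48). Apoe, a lipoprotein of both hepatocytes and macrophages, was at 14.58, 14.65 and 14.64 in HC_H2O and at 14.72, 14.71 and 14.68 in MC_H2O and was not called (0.09, 95% interval −0.03 to 0.20), near the top of the arrays.

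Iron genes were split by role. Of 23 tested members of the iron and haem list 12 were lower and 9 higher in MC_H2O. Hepcidin (Hamp), the hormone that closes the iron exporter, was at 13.49, 13.80 and 14.00 in HC_H2O and 7.21, 8.63 and 8.86 in MC_H2O. Slc40a1 (ferroportin), that exporter, was at 10.43, 11.39 and 11.11 against 14.33, 14.23 and 14.05, higher in all MC_H2O arrays. Genes of haem breakdown and iron release in macrophages were higher as well, with haem oxygenase Hmox1 at 6.60, 7.01 and 6.75 in HC_H2O and 11.31, 11.12 and 10.55 in MC_H2O and the phagosomal metal transporter Slc11a1 higher by 6.06 (SE 0.20). Plasma carriers were lower, with log2 differences of −4.32 for haptoglobin (Hp), −4.06 for ceruloplasmin (Cp) and −3.19 for hemopexin (Hpx). The ferritin chain Fth1 was not called (0.15, 95% interval −0.02 to 0.32).

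Retinoid genes were lower more often than higher. Of 17 tested members 11 were lower and 4 higher in MC_H2O (median −1.48). Rbp4, the plasma retinol carrier, was at 14.15, 14.22 and 14.29 in HC_H2O and 9.44, 10.48 and 10.59 in MC_H2O, and the retinoic acid forming Aldh1a1 was lower by a difference of −4.68 (SE 0.43). The retinoic acid receptor Rarb was higher, at 8.65, 9.07 and 9.64 in MC_H2O against 6.60, 6.33 and 6.79, along with Lrat.

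**Figure D4:**
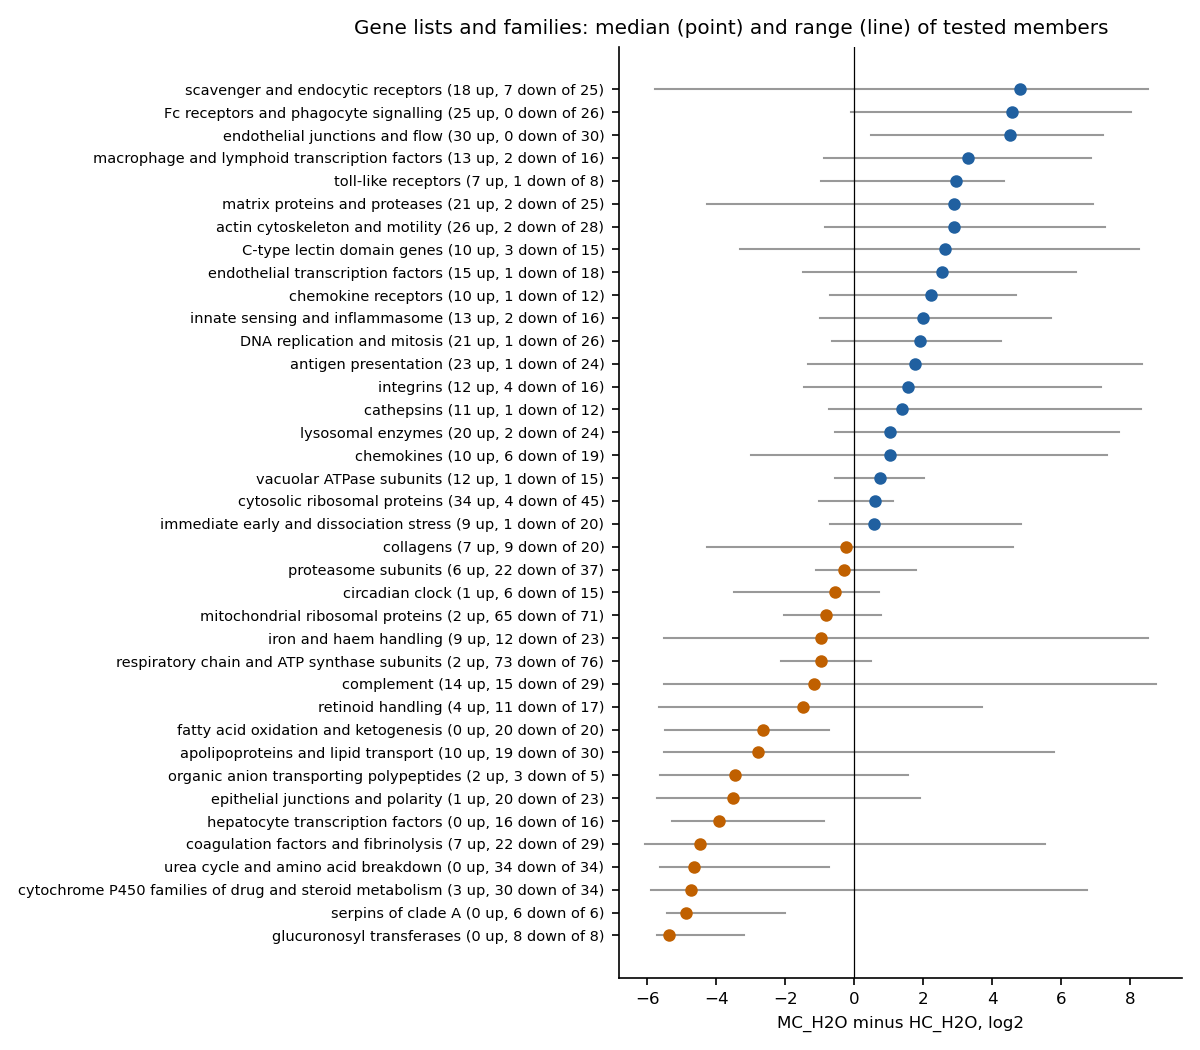
Median difference between MC_H2O and HC_H2O of the tested members of each pathway list or gene family with at least 5 of them, cell type markers left out (points, log2 on the horizontal axis) and the range from the lowest to the highest member (grey lines), with counts of called members beside each name. Among those drawn, glucuronosyl transferases have the lowest median (−5.37) and scavenger receptors the highest (4.82), and the lines of complement and of iron handling span both sides of 0.

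Liver forms of metabolic enzymes were lower in MC_H2O, and many forms of other tissues were higher. Of 18 tested genes listed as liver forms 17 were lower in MC_H2O and none was higher (median −3.91). Of 25 listed as counterparts 16 were higher and 6 lower (median 1.59). The sets are loose and hold transporters and binding proteins as well as enzymes. Gamt and Ckb, set against each other, are not forms of the same enzyme. Alox5ap is counted with the lipoxygenases, and Sod1 as the liver form against Sod2 and Sod3. The liver pyruvate kinase Pklr was at 9.91, 10.16 and 10.62 in HC_H2O and 6.26, 6.82 and 6.79 in MC_H2O, whereas the general form Pkm was at 5.84, 5.36 and 5.85 against 10.52, 10.20 and 10.13. Each gene separated the groups completely, in opposite directions. Of the glucose transporters, Slc2a2 of liver was at a difference of −5.17 (SE 0.54) and Slc2a3 of other tissues at 2.93 (SE 0.16).

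Glycogen phosphorylase was lower in its liver form Pygl (−2.13, SE 0.14) and higher in its brain form Pygb (2.48, SE 0.20). The urea cycle arginase Arg1 differed by −4.84 and the mitochondrial Arg2 by 3.19. Fabp1, the fatty acid binding protein of hepatocytes, was at 14.63, 14.69 and 14.72 in HC_H2O and 10.49, 11.87 and 11.90 in MC_H2O, while Fabp4, the form of fat cells, macrophages and endothelium, was at 5.82, 5.33 and 5.35 against 12.04, 11.95 and 12.26. Phosphofructokinase was higher in its platelet form Pfkp (3.16) and lower in its muscle form Pfkm (−0.84). Hexokinases Hk1 and Hk2, which trap glucose in most tissues, were higher by 3.95 and 3.53, from dim HC_H2O levels.

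The counterpart forms were not uniform. Hmgcs1, which makes the precursor of cholesterol, was lower in MC_H2O (−2.90, SE 0.17), as was the mitochondrial superoxide dismutase Sod2 (−1.67, SE 0.10). Slc2a1 (−0.31), Gys1 (−0.26) and Fabp5 (0.31) were not called. Among genes above the 40th percentile in all 6 arrays, 13 counterpart forms remained and their median was −0.31, so the median of the larger list rests on forms that were dim in HC_H2O.

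**Figure D5:**
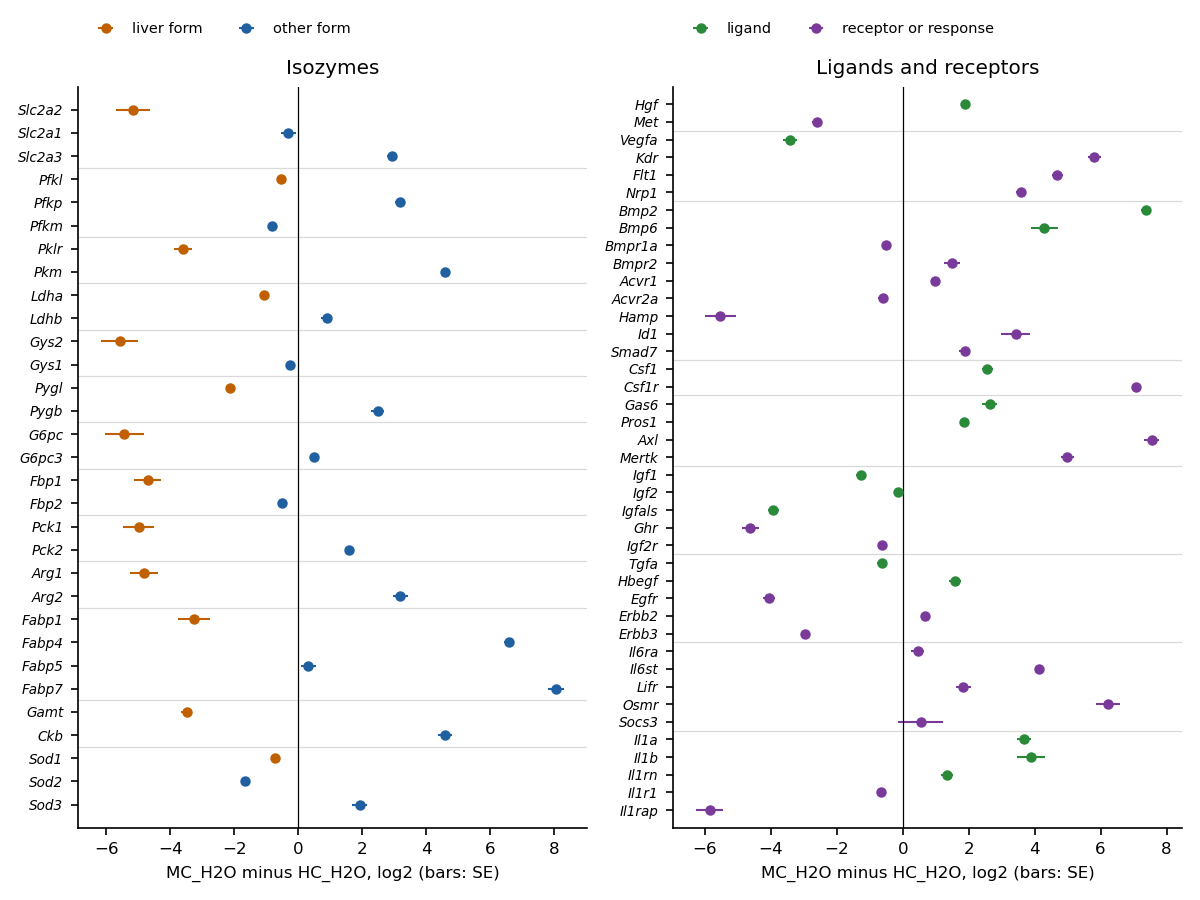
Differences between MC_H2O and HC_H2O (log2, horizontal axis, bars are SE) of single genes. On the left are isozyme sets with both a liver form (orange) and another form (blue) tested, loose sets such as Gamt and Ckb included. On the right are ligands (green) and receptors or responses (purple). Thin lines part the sets. Pklr and Pkm lie at −3.61 and 4.60, Vegfa and Kdr at −3.42 and 5.80, and Bmp2 and Hamp at 7.37 and −5.53.

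Genes of amino acid and drug metabolism were lower in MC_H2O. All 34 tested genes of the urea cycle and amino acid breakdown were lower in MC_H2O (median −4.66), from the histidine pathway enzyme Ftcd (−5.64) to Aass of lysine breakdown (−0.73). Glutamine synthetase (Glul), which hepatocytes around the central vein express, was not on that list and was higher, at 11.99, 12.29 and 12.53 in MC_H2O against 10.21, 10.20 and 10.74 in HC_H2O. All 8 tested glucuronosyl transferases were lower (median −5.37). All 20 genes of fatty acid oxidation were lower too, from the ketogenic Bdh1 (−5.33) and Acaa1b (−5.49) to the carnitine transferase Cpt1a (−0.74).

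Of 34 tested P450 genes of drug and steroid metabolism 30 were lower and 3 higher in MC_H2O. Cyp4b1, a P450 known from lung, was the widest exception, at 6.98, 6.33 and 6.66 in HC_H2O and 13.05, 13.45 and 13.77 in MC_H2O (6.76, SE 0.21). The other higher members were Cyp4f18, which degrades leukotriene B4 in leukocytes (2.48), and Cyp4f16 (1.88). Cyp2b10, the phenobarbital-inducible form, was low in both fractions without the drug, at 7.80, 8.01 and 7.72 and 7.18, 7.40 and 7.19, and was not called with all 12 arrays in the fit (−0.59, SE 0.43, adjusted p = 0.218 in limma). The groups did not overlap, and on the 6 vehicle arrays alone the same difference was called (SE 0.11, adjusted p = 0.0023 in limma, and 0.0023 with the replicate block).

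Genes of mitochondria and of cytosolic ribosomes moved in opposite directions by small steps. Of 76 tested subunits of the respiratory chain and ATP synthase 73 were lower in MC_H2O (median −0.95), 37 of them by at least 2-fold. Mitochondrial ribosomal proteins were lower in 65 of 71 cases (median −0.83). Cytosolic ribosomal proteins were higher in 34 of 45 cases and lower in 4 (median 0.60), and 3 of the higher ones differed by at least 2-fold. Rplp0, with a difference below 2-fold, was at 12.88, 12.83 and 12.86 in HC_H2O and 13.43, 13.49 and 13.44 in MC_H2O. With arrays aligned on their medians the counts were 73 lower, 69 lower and 31 higher.

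Several ligands and their receptors were high in opposite fractions. Hgf, the growth factor that drives hepatocytes to divide, was at 6.17, 6.26 and 6.09 in HC_H2O and 8.20, 7.95 and 8.05 in MC_H2O, and its receptor Met at 7.97, 7.86 and 7.87 against 5.36, 5.33 and 5.23. The ligand was dim in HC_H2O and the receptor dim in MC_H2O. Vegfa, the growth factor of endothelium, was higher in hepatocytes, at 9.49, 9.92 and 9.63 in HC_H2O and 6.31, 6.48 and 5.99 in MC_H2O, and its receptors Kdr, Flt1 and Nrp1 were higher by 5.80, 4.68 and 3.59.

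Bmp2, a BMP that induces hepcidin, was at 5.58, 5.57 and 5.71 in HC_H2O and 12.59, 13.24 and 13.13 in MC_H2O, and Bmp6, which does the same, was higher by 4.29 (SE 0.41). The BMP target Id1 was higher in MC_H2O as well (3.42, SE 0.44), so that this target and Hamp lay on opposite sides. Wnt2, an endothelial Wnt of the liver, was higher by 5.20 (SE 0.32). Receptors of several hormones and growth factors were lower in MC_H2O: the growth hormone receptor Ghr was at 12.73, 12.95 and 12.92 in HC_H2O and 7.69, 8.59 and 8.45 in MC_H2O, the glucagon receptor Gcgr differed by −4.15, the EGF receptor Egfr by −4.06, and Klb and Fgfr4, which receive the gut hormone FGF15, by −3.64 and −3.94.

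Other ligands and receptors were high in the same fraction. Csf1, the macrophage growth factor, and its receptor Csf1r were both higher in MC_H2O, by 2.56 and 7.07. So were Gas6 (2.64) and its receptors Axl (7.54) and Mertk (4.99), a system for the uptake of dying cells, and Kitl (3.71) with Kit (5.81). All 4 tested receptor genes of the interleukin 6 family were higher in MC_H2O, by unequal steps: the shared chain Il6st was at 9.20, 9.05 and 8.93 in HC_H2O and 13.03, 13.22 and 13.32 in MC_H2O and the oncostatin M chain Osmr was higher by 6.22 and the LIF receptor Lifr by 1.84. Il6ra was at 8.82, 9.32 and 9.66 against 9.60, 9.68 and 9.88, and its small difference (0.45) lost its call under 10 alternatives, among them both array alignments, averaged probe sets, the 6 vehicle arrays alone and leaving out HC_H2O array 1 or 2 or MC_H2O array 2 or 3. The interleukin 1 genes Il1a and Il1b were higher by 3.67 and 3.89, and the accessory receptor Il1rap was at 12.18, 12.30 and 12.32 in HC_H2O and 5.92, 6.84 and 6.47 in MC_H2O. Over all sets, 22 of 33 tested ligands were higher and 7 lower, and 41 of 65 receptors or response genes were higher and 20 lower. Among ligands above the 40th percentile in all 6 arrays, 12 genes, the median was −0.22, against 1.87 over the 33.

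Phagocyte and sensing genes were higher in MC_H2O almost throughout. Of 26 tested Fc receptor and phagocyte signalling genes 25 were higher and none lower (median 4.59), all 25 by at least 2-fold. Cybb, the catalytic subunit of the phagocyte NADPH oxidase, was higher by 7.24 (SE 0.22), and Nox4, a related oxidase with a role in many tissues, was among the lowest genes, at 9.98, 10.45 and 10.43 in HC_H2O and 4.14, 4.43 and 3.96 in MC_H2O. Siglec1, a sialic acid receptor of macrophages, was the member not called (−0.10, SE 0.14). With arrays aligned on their medians, and with its probe sets averaged, Siglec1 was called, so its result depends on the setting. Toll-like receptors were higher in 7 of 8 cases, with the endotoxin receptor Tlr4 at 4.94, 5.28 and 5.05 in HC_H2O and 9.90, 9.20 and 9.21 in MC_H2O. Tlr5, which senses flagellin, was lower (−0.95, SE 0.17).

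Antigen presentation genes were higher, with wider differences in class II than in class I. Of 24 tested genes 23 were higher and 1 lower in MC_H2O (median 1.76). The class II chain H2-Eb1 was higher by 6.17 and the class II chaperone Cd74 by 6.72, whereas the class I genes H2-K1, H2-D1 and B2m were higher by 0.60, 1.27 and 0.35. The lower member was Cd1d1, which presents lipids to NKT cells (−1.35, SE 0.06). The proteasome showed a split of its own. Of 37 tested subunits 22 were lower and 6 higher (median −0.31), and the 3 subunits of the immunoproteasome were the highest: Psmb8 was at 9.90, 9.64 and 9.63 in HC_H2O and 11.64, 11.42 and 11.50 in MC_H2O, and Psmb9 and Psmb10 were higher by 1.71 and 1.45. Psmb7, whose place Psmb10 takes, was lower (−0.89, SE 0.08).

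Chemokine genes differed in both directions. Of 19 tested 10 were higher and 6 lower in MC_H2O, and of 12 receptors 10 were higher and 1 lower. Ccl6, a macrophage chemokine, was at 4.73, 5.29 and 5.59 in HC_H2O and 12.95, 12.26 and 12.46 in MC_H2O. Cxcl16, the ligand of Cxcr6 on NKT cells, was higher by 3.78 (SE 0.13), and Cxcr6 itself by 4.70 (SE 0.39). Ccl9 was lower, at 8.34, 7.88 and 8.45 in MC_H2O against 11.39, 11.15 and 11.11. Cxcl1, which attracts neutrophils, was lower as well (−2.95, SE 0.71) and was highest in array 1 of each group, at 12.33, 10.41 and 10.02 in HC_H2O and 9.61, 7.17 and 7.11 in MC_H2O. Ccl3 had the same order within MC_H2O, at 10.31, 7.70 and 7.28.

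Junction and cytoskeleton genes differed by cell type. Of 23 epithelial junction and polarity genes 20 were lower and 1 higher in MC_H2O (median −3.52), and all 30 endothelial junction and flow genes were higher (median 4.53). Among gap junction genes, Gjb1 and Gjb2, the connexins of hepatocytes, differed by −5.57 and −5.73, and Gja1 and Gja4, which endothelial cells use, by 7.11 and 5.07. Keratins Krt8 and Krt18, the only keratin pair of hepatocytes, were lower by differences of −3.82 and −4.07, and vimentin (Vim), the filament of non-epithelial cells, was higher by 5.57. Of 28 actin genes 26 were higher and 2 lower. Tmsb4x, which binds free actin, was at 7.85, 7.38 and 7.47 in HC_H2O and 14.95, 14.80 and 14.79 in MC_H2O, and moesin (Msn) was higher by 6.73. Its relatives radixin (Rdx) and ezrin (Ezr) were the lower members, by differences of −0.85 and −0.39. Ezrin depended on the probe set: another one, dim in HC_H2O, differed by 4.18, and the mean of both by 1.89.

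Matrix genes were mostly on the MC_H2O side, and collagens were not. Of 25 tested matrix and protease genes 21 were higher and 2 lower (median 2.90). The matricellular Sparc was at 7.10, 6.72 and 6.95 in HC_H2O and 12.31, 12.57 and 12.79 in MC_H2O. The lower genes were Fn1 and Vtn, fibronectin and vitronectin, which hepatocytes release into plasma (−3.86 and −4.28). Of 20 tested collagens 7 were higher and 9 lower (median −0.24). The basement membrane chains Col4a1 and Col4a2 were higher by 4.62 and 3.14, and Col18a1, the precursor of endostatin, was at 11.68, 11.56 and 11.58 in HC_H2O and 7.23, 7.32 and 7.43 in MC_H2O. With a filter at the 60th percentile 8 collagens remained with a median of 2.14. Col1a2, a chain of fibrillar collagen, differed by 0.64 (SE 0.15).

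Cell cycle and lysosome genes were mostly higher in MC_H2O. Of 26 tested DNA replication and mitosis genes 21 were higher and 1 lower (median 1.92). The replicative helicase was higher in each subunit on the array. Mcm3 was at 5.61, 5.75 and 5.36 in HC_H2O, where it was dim, and 9.94, 9.73 and 9.80 in MC_H2O. Mcm2, Mcm4, Mcm5, Mcm6 and Mcm7 differed by 1.79, 2.63, 2.69, 2.89 and 1.35. Lysosomal enzymes were higher in 20 of 24 cases and lower in 2 (median 1.04), and the protease Lgmn was at 8.48, 8.68 and 8.45 against 14.02, 13.88 and 13.76. The alpha-glucosidase Gaa was called lower by a small difference (−0.17) and was at 0.06 and not called when its probe sets were averaged.

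Immediate early and stress genes, which respond within minutes and also to cell isolation, were higher in 9 of 20 cases and lower in 1, and 10 were not called. Fos was at 11.66, 11.06 and 10.86 in HC_H2O and 13.76, 12.49 and 12.55 in MC_H2O, with array 1 highest in both groups. The heat shock gene Hspa1a was higher by 4.85 (SE 0.28). The list averaged 9.35, 9.05 and 8.83 in the HC_H2O arrays and 10.66, 9.78 and 9.71 in the MC_H2O arrays. The part of isolation in these values was not tested. Clock genes were called in 7 of 15 cases, 6 lower and 1 higher, and Nfil3, a clock output repressor, had the widest difference (−3.49, SE 0.35).

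Some bright genes hardly differed. Among genes not called, Rps2, a ribosomal protein, was at 13.31, 13.36 and 13.42 in HC_H2O and 13.35, 13.40 and 13.41 in MC_H2O, with a 95% interval of the difference from −0.11 to 0.15. Oaz1, which limits polyamine synthesis, had an interval from −0.25 to −0.00, and the elongation factor Eef2 from −0.04 to 0.28. With arrays aligned on their medians these intervals move down by 0.22, and Rps2 (−0.20), Oaz1 (−0.34) and Apoe (−0.13) were then called lower. Oaz1 was called under 3 further alternatives and Eef2 under 2, so the calls of such small differences depend on the setting.

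The population difference was set beside the arrays of phenobarbital mice. The change of the difference with phenobarbital was called for 0 of 9031 genes (0.0%) in limma, with 492 genes at an unadjusted p under 0.05 and a lowest adjusted p of 0.108, that of Cyp2b10. Its difference was −0.59 in the vehicle arrays and −5.10 in the phenobarbital arrays. Of the 7470 genes called in vehicle mice 7446 had the same sign in the phenobarbital arrays, and of those at least 2-fold apart 3815 of 3818. F8 had differences of 5.53 and 5.92, Hamp of −5.53 and −4.45, and Bmp2 of 7.37 and 7.34.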

How the data were processed

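Total RNA of the 12 samples was labelled with an Affymetrix 3′ IVT kit, per the labels' protocols. The authors deposited log2 expression values for 22626 probe sets. RMA, which corrects background, equalises array distributions and summarises probes, is named in the submitters' processing notes. Neither its version nor any scan batch is stated there, and no batch was tested. The deposited arrays did not share a common distribution: their medians were 7.19 to 7.21 in HC_H2O and 7.40 to 7.43 in MC_H2O. Each difference is therefore relative to the array scale as deposited.

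By the platform annotation 20380 probe sets had 1 symbol, 691 several and 1555 none, and those without exactly 1 were left out. RefSeq entries were matched for 20351. Each of 12393 genes was represented by its brightest probe set (mean of 12 arrays). Genes above their array's 40th percentile in 3 or more arrays were tested. A gene dim in 1 fraction can pass through the other alone, where it is high, so counts and medians of lists lean on such genes. Group means of all 12 arrays were fitted in limma 3.58.1 (R 4.3.3) with an intensity trend, and calls were made at a Benjamini-Hochberg adjusted p under 0.05. The SE and 95% intervals come from this fit. With 3 arrays a group an exact test of a single gene cannot go below 0.1, so single genes rest on the model.

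Members and gene lists were chosen with earlier results of these data known. The text names the 10 widest differences of each sign, once over all called genes with separate groups and once over those bright in all 6 arrays. Per list up to 4 called members of each sign and 2 not called were named, along with members of isozyme and signal sets, bright genes with narrow intervals, genes with opposed probe sets and genes with a high SD. Genes named beyond this rule were chosen after their values were seen.

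Samples of the same number in both vehicle groups deviated together over genes (r of 0.226, 0.214 and 0.178, each highest with its own number). In the phenobarbital groups these r were 0.0718, −0.0616 and 0.0144. The main fit did not use the numbers, and its SE and calls ignore any pairing. They entered as a replicate block in alternative fits only. No 2 arrays were identical. On simulated data for 9031 genes, 90% of 100 genes changed by 1 and 100% of 100 genes changed by 2 on the log2 scale were recovered between MC_H2O and HC_H2O, with 8 unchanged genes called. The simulation changed few genes and drew each array independently. In these data most genes differed and vehicle arrays of the same number deviated together, so its rates do not describe this comparison. Alternatives varied the low-value filter, array alignment, the choice of probe set, the trend, the arrays fitted, the replicate block and the fold tested, and left out each array in turn. Leaving out both vehicle arrays numbered 1 was added after the data were seen.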

Additional observations from a re-analysis of the deposited data

How the results depend on the processing

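Direction was stable for wide differences: no gene called at 2-fold or more changed sign under any alternative that tested it. Between 7151 and 7377 genes were called when arrays of the vehicle groups were left out (3665 to 3775 higher, 3486 to 3625 lower, 3805 to 3877 at 2-fold or more). The range covers single arrays and both arrays numbered 1 together, the last chosen after the data were seen. Tested against a 2-fold difference with limma's treat, 2986 genes passed, 1641 higher and 1345 lower. Without a filter on dim genes 5639 of 12393 genes were called lower. Of genes above the 40th percentile in all 6 vehicle arrays, 2311 were called at 2-fold or more, so many wide differences rest on a dim side. The change with phenobarbital was called for 1 gene without HC_PB replicate 3 (Moxd1) and for 1 without MC_PB replicate 1 (Cyp2b10), and for 0 when any other array was left out. With the replicate number as a block, 7445 genes were called and 7336 of the 7470 calls were kept; on the 6 vehicle arrays alone 7077 were called both with and without the block. The block moved no count by more than 1.5 times, but with most genes already called the total could not have risen that far. That limit therefore does not show whether a pairing matters. Averaging the probe sets of a gene turned Arhgap9 (2.27), Ezr (1.89), Pacc1 (1.58) and Runx1 (0.48) from lower to higher, and turned the sign of Gaa (0.063, not called). Over all genes it changed the sign of 74 calls of 7123, and 23 of these were called the opposite way; median alignment changed the sign of 32. The medians of lists with at least 5 tested members that changed sign were those of clock genes (0.13 without MC_H2O replicate 1), of collagens (2.14 at the 60th percentile filter), of counterpart isozymes (−0.31) and of ligands (−0.22), the last 2 among genes bright in all 6 arrays; fewer genes were tested in the last 3. Of 478 named genes 330 kept call and direction under every alternative run. Having 3 arrays a group, together with dim values and compressed bright values, limits the precision throughout.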

Other observations

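Gene families outside the comparisons above differed as well. Of 16 tested integrin genes 12 were higher and 4 lower in MC_H2O: the leukocyte chain Itgb2 was higher by 7.17 (SE 0.22), and Itga8, a chain of stellate and smooth muscle cells, was at 4.42, 4.15 and 4.58 in HC_H2O and 8.73, 8.99 and 8.93 in MC_H2O. Of 7 tested Notch ligands and receptors 5 were higher and none lower, with Notch2 (0.31) and Jag2 (−0.13) not called: the receptors Notch1 and Notch4 were at differences of 3.61 and 4.28, the endothelial ligand Dll4 at 2.79 and the target Hes1 at 2.20. Of 15 tested subunits of the vacuolar ATPase, the proton pump of lysosomes, 12 were higher and 1 lower (median 0.76), led by Atp6v1b2 (2.04, SE 0.13). Of 5 tested organic anion transporters 3 were lower, among them Slco1b2 of the sinusoidal hepatocyte membrane (−5.64), and 2 were higher, the prostaglandin carrier Slco2a1 (0.73) and Slco3a1 (1.57).

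Probe sets of one gene mostly moved together. Of 3396 genes with at least 2 tested probe sets, 165 (4.86%) had probe sets called in opposite directions, and in 6 of these both passed 2-fold. The median gap between the highest and lowest probe set was 0.39. After Masp1 the widest gaps were those of Igfbp7 (6.93 and −0.75), Iqgap1 (6.48 and −0.55), Sox4 (5.08 and −1.16) and Ahnak (4.25 and −1.80).

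Spread within a group was widest for genes that set the arrays numbered 1 apart. In hepatocytes Rgs16, a regulator of G protein signalling, was at 7.59, 11.72 and 11.25 and the deubiquitinase Usp2 at 7.79, 10.67 and 10.96, low in array 1, and the elongase Elovl3 at 13.07, 10.32 and 10.45, high in array 1. In MC_H2O the first of these was at 7.43, 7.48 and 7.44 and the second at 8.14, 7.62 and 8.10, with no such gap. The uridine phosphorylase Upp2 was low in array 1 of both groups, at 10.62, 12.80 and 12.79 in HC_H2O and 4.27, 7.60 and 7.40 in MC_H2O. Other genes varied widely within MC_H2O, such as the matricellular Ccn2 (8.61, 10.12 and 12.22) and the immunoglobulin gene Igha (10.90, 8.66 and 8.14).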
